A study of Mus musculus with 12 samples.

Results

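Expression of 29 genes of cholesterol and fatty acid synthesis was followed in astrocytes, in the sphere cells made from them and in 2 kinds of neural tissue. The genes were found by their symbols in a table of 55862 genes, of which 35208 had a value above 0 in any of the 12 samples. They were 7 enzymes from acetyl-CoA units to squalene, 7 enzymes from squalene to cholesterol, 3 regulators, 4 genes of acetyl-CoA supply and fatty acid synthesis, 6 desaturases and elongases, and 2 cholesterol efflux pumps.

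The labels give C57BL/6 mice for all samples, 3 in each of 4 groups, and the study's methods give C57BL/6J for both NPC groups. No genetic change is named for any group. ASTs were cortical astrocytes of mice 1 to 2 days old, grown as a monolayer in serum and taken at 0 days of sphere culture. A-iSCs were cells derived from such astrocytes, cultured 5 days on agarose-coated dishes, where they form spheres. P56-NPCs were suspensions of the subependymal zone of adult mice of 8 weeks, and P0-NPCs were suspensions of the hippocampus of mice at postnatal day 0. Both NPC groups were dissociated tissue with no marker selection named, and the methods speak of independent experiments in general. Which of these samples came from separate animals or cultures is not given in the sources used here, so the p-values measure the spread between these samples alone.

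Cells build cholesterol from acetyl-CoA through mevalonate and squalene, and fatty acids from acetyl-CoA through malonyl-CoA. The sterol regulatory element binding proteins SREBP2, encoded by Srebf2, and SREBP1, encoded by Srebf1, turn on these enzymes when sterols are scarce, and INSIG1 holds them back in the endoplasmic reticulum. When sterols are plentiful, the liver X receptors turn on the efflux pumps ABCA1 and ABCG1. In the brain, astrocytes make much of the cholesterol that neurons use, and oligodendrocytes make large amounts of lipid for myelin.

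Promoters of 22 of the 29 genes were found in the RefSeq promoter table for GRCm38.p6, as 300-base windows from 250 bases before to 50 bases after the start site. Scd1, Scd2, Fdps, Sqle, Fdft1, Fads1 and Abcg1 were not matched. The 250 bases upstream of the start site are shown for 5 genes to which the comparisons below return: Hmgcs1 (chr13:119690101-119690350, plus strand), Mvk (chr5:114444019-114444268, plus strand), Cyp51 (chr5:4104698-4104947, minus strand), Insig1 (chr5:28071162-28071411, plus strand) and Abca1 (chr4:53159896-53160145, minus strand). Capitals mark CCAAT boxes, read as CCAAT or on the other strand as ATTGG, and the core of the sterol regulatory element.
Hmgcs1: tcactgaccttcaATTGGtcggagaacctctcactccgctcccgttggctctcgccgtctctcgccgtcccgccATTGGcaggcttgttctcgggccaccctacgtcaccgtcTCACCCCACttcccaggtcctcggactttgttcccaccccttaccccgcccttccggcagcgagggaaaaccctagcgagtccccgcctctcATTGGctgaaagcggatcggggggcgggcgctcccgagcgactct
Mvk: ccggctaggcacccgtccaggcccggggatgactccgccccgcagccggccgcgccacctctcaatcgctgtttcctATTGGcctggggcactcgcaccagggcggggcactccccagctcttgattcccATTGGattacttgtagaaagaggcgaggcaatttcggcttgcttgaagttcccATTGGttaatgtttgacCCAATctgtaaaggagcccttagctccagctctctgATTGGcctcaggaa
Cyp51: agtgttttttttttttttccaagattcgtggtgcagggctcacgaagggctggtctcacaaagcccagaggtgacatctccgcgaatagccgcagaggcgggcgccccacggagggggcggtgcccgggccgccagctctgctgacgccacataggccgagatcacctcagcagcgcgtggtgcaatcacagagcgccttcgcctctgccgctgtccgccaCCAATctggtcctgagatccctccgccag
Insig1: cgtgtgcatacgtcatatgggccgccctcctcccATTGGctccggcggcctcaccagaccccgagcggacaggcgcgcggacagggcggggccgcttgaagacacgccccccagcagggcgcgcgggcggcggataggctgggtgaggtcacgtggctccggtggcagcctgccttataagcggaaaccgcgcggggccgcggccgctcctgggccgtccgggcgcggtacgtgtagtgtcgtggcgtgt
Abca1: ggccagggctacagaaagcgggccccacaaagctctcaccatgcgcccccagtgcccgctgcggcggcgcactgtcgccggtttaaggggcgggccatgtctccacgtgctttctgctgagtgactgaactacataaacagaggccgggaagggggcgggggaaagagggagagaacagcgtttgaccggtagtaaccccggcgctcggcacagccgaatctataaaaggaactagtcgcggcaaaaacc

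Letters were searched on both strands of the whole 300-base windows. CCAAT was present in 18 of 22 matched genes (81.82%), against 41.06% of 27025 genes in the table and 43.01% of the 9969 genes that had a promoter and were tested between A-iSCs and ASTs. All 11 matched cholesterol enzymes held it, as did 7 of 11 other members, and it was missing from the windows of Acaca, Elovl6, Fads2 and Abca1. Mvk held 5 copies and Hmgcs1 held 4, of which 3 lie in the printed stretch. The sterol regulatory element core TCACNCCAC was found in Hmgcs1 alone, from base -137 of the start site, against 1.44% of all genes. CACGTG, the E-box, was present in Sc5d, Dhcr7, Insig1, Elovl5 and Abca1, which is 22.73% of the matched genes against 8.09% of all. The exact consensus letters of DR4, the liver X receptor element, were in 0 of 22 windows and in 0.01% of genes. Letters so rare could hardly be met in 22 windows, and variants of them were not searched. The count therefore does not tell whether these windows, that of Abca1 among them, hold a variant of the element. Genes with several listed promoters were counted once if any of them held the letters. Matches of different motifs could share bases, and a match describes letters in a window and not a bound site.

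**Figure D1:**
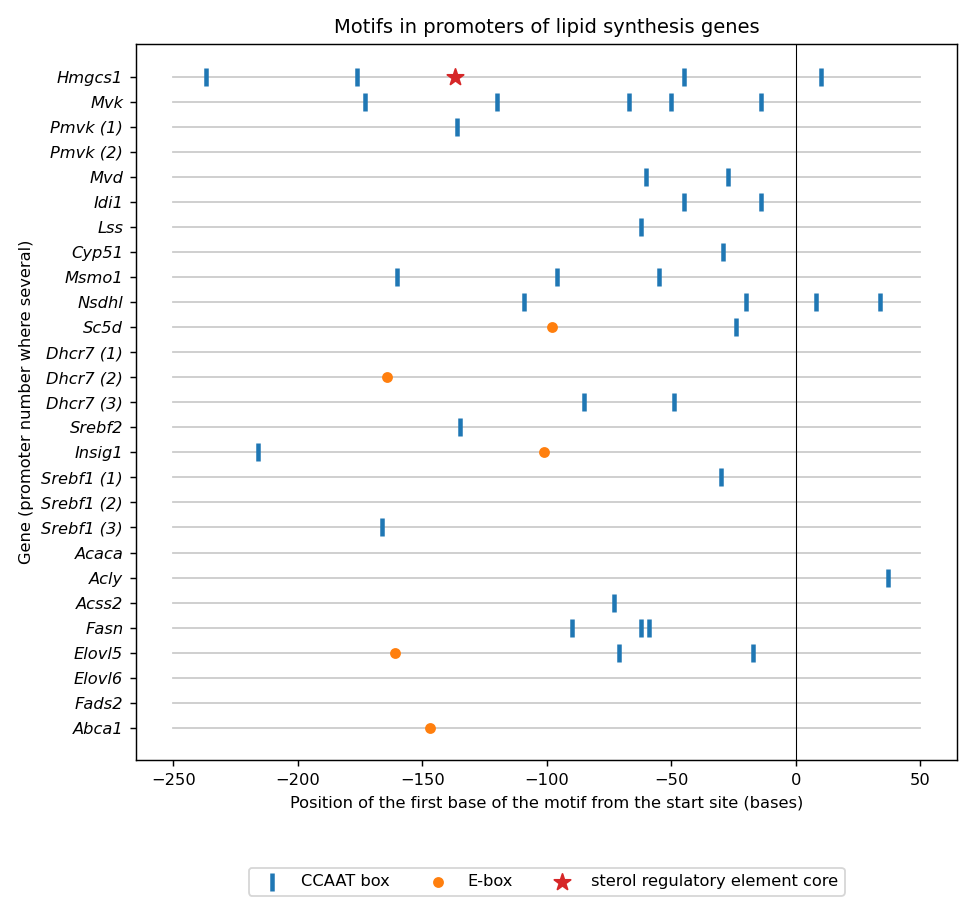
Position of each CCAAT box (blue bar), E-box (orange point) and sterol regulatory element core (red star) in the promoter windows of the 22 matched genes, in bases from the start site at 0, with a grey line for each listed promoter. Blue bars stand on 18 of 22 genes and the single star on Hmgcs1.

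Values were taken as FPKM, fragments scaled to gene length and to library size, so levels can be set side by side between genes. From the recovered fragments, samples held 17077780 to 24452419 fragments, and 3 fragments in a gene of 1 kilobase corresponded to 0.103 to 0.187 FPKM. ASTs replicate 2 and A-iSCs replicate 3 stood apart from the other samples of their groups, with a chi-square per degree of freedom of 43.5 and 45.0 against 2.63 for the other AST pair, and of 105 and 83.3 against 13.4 for the other A-iSC pair. Mitochondrial genes took 16.5 to 17.6% of the fragments in P56-NPCs and 2.94 to 7.03% in the other groups. Of the astrocyte markers, all 8 were above the floor of 3 fragments in every group, and their summed level was 143 to 161 FPKM in ASTs, 1211 to 2466 in A-iSCs, 2834 to 3072 in P56-NPCs and 238 to 303 in P0-NPCs. The 6 neural progenitor markers summed to 330 to 354 FPKM in ASTs, 289 to 351 in A-iSCs, 123 to 158 in P56-NPCs and 137 to 141 in P0-NPCs, so the groups labelled NPC did not stand above ASTs on this sum. These are bulk samples, in which fewer cells of a type and less RNA per cell cannot be told apart.

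Across the 4 groups, the highest mean was in P56-NPCs for 18 genes and in ASTs for 9, while Abca1 was highest in A-iSCs and Acaca in P0-NPCs. The lowest mean was in P0-NPCs for 12 genes, in A-iSCs for 9, in ASTs for 6 and in P56-NPCs for Fdps and Sqle. The 14 cholesterol enzymes summed to 368 to 386 FPKM in ASTs, 231 to 260 in A-iSCs, 320 to 330 in P56-NPCs and 200 to 215 in P0-NPCs. The 4 ranges did not overlap on this scale. As a share of the summed FPKM of a sample, which no scaling between samples changes, they took 0.0948 to 0.119% in ASTs, 0.0734 to 0.0941% in A-iSCs, 0.0653 to 0.0685% in P56-NPCs and 0.0728 to 0.0850% in P0-NPCs. By share, ASTs stayed highest, P56-NPCs became the lowest group, and A-iSCs and P0-NPCs overlapped. The 6 desaturases and elongases summed to 416 to 490 FPKM in ASTs, 475 to 772 in A-iSCs, 1990 to 2304 in P56-NPCs and 380 to 430 in P0-NPCs, so P56-NPCs lay above every other sample, as they did by share (0.406 to 0.459%, against at most 0.279% elsewhere).

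**Figure D2:**
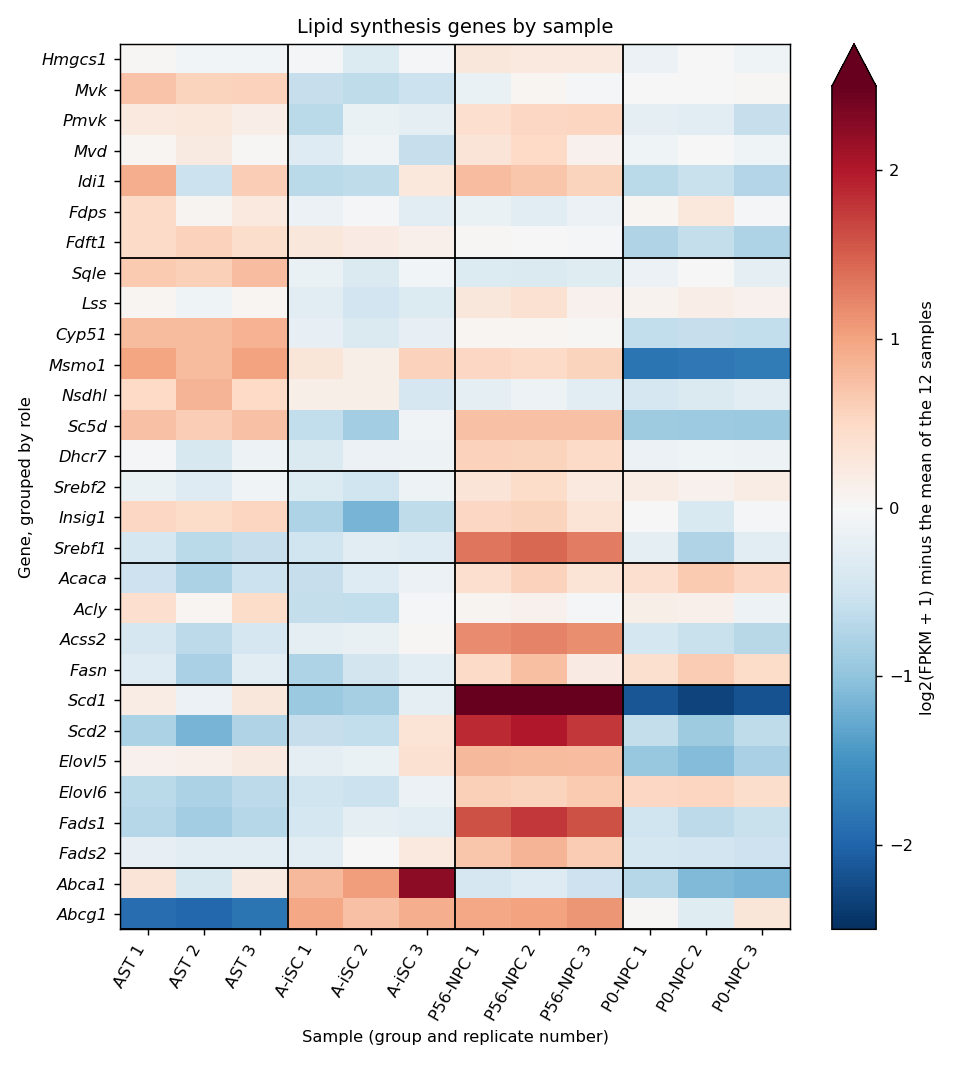
Each cell is log2(FPKM + 1) of 1 gene in 1 sample minus that gene's mean over the 12 samples, with genes in rows by role and samples in columns by group (red above the mean, blue below, colour limited at the end of the bar). Mvk, Sqle, Cyp51 and Msmo1 are reddest in ASTs, while the 6 desaturases and elongases are reddest in P56-NPCs.

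Groups were compared 2 at a time by limma on log2(FPKM + 1) over genes with a mean of at least 1 FPKM in either group, and a call required a p below 0.05 after Benjamini-Hochberg adjustment. Log2 fold changes are on this scale, which understates the change of low genes, and are given with their standard errors. Fdps did not reach the filter in any comparison and has no test.

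The first comparison asks what 5 days of sphere culture went with. As deposited, A-iSCs had lower levels of most enzymes of cholesterol synthesis than ASTs, lower Insig1, and higher Abca1 and Abcg1. Of the 28 members tested, 4 were higher in A-iSCs (14.3%) and 12 lower (42.9%), where 25.2% of the 14087 genes tested were called higher and 29.6% lower. The median log2 fold change was -0.23 over the members and -0.06 over all genes tested. The samples of the 2 groups did not overlap for 19 members (62.7% of all genes tested). The number of calls turned on single samples. Without ASTs replicate 1 or ASTs replicate 3, 7 members were lower, and without any 1 of the ASTs, or without A-iSCs replicate 2, 2 members were higher. With scaling by library size alone, which moved the median of all genes to 0.13, 7 members were higher and 5 lower, beside 4563 and 2989 genes, against 3550 and 4165 genes as deposited. The calls of Mvk, Sqle, Cyp51, Sc5d and Insig1 as lower and of Abcg1 as higher were kept under all 13 alternatives tried.

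Of the 14 cholesterol enzymes, 13 were tested, 9 were lower in A-iSCs, 0 were higher, and 4 were not called. Under scaling by library size 4 of the 13 were lower, namely Mvk, Sqle, Cyp51 and Sc5d. The median log2 fold change of the 13 as deposited was -0.59. Mvk, the mevalonate kinase, was at 21.6, 19.3 and 19.5 FPKM in ASTs, 8.25, 7.83 and 8.53 in A-iSCs, 11.3, 13.2 and 12.6 in P56-NPCs, and 12.7, 12.9 and 13.1 in P0-NPCs. On the deposited scale all A-iSC samples lay below all samples of the other 3 groups, and the 2 NPC groups overlapped each other. Under scaling by library size Mvk was not called between A-iSCs and P56-NPCs (limma, adjusted p = 0.80). Mvk fell by 1.20 ± 0.10 on the log2 scale from ASTs to A-iSCs (limma, adjusted p = 8.1e-05), which is a ratio of means of 0.407. Among the other enzymes before squalene, Pmvk fell by 0.58 ± 0.15 (adjusted p = 0.016) and Mvd, the decarboxylase that follows it, by 0.44 ± 0.15 (adjusted p = 0.039). Without ASTs replicate 1 the adjusted p of Pmvk was 0.057. Leaving out any 1 sample other than A-iSCs replicate 2 put the adjusted p of Mvd between 0.054 and 0.10.

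Hmgcs1, which makes HMG-CoA and carries the core element printed above, was not called. It was at 65.5, 61.7 and 61.5 FPKM in ASTs and at 62.7, 50.6 and 62.7 in A-iSCs, so the groups overlapped, and its log2 fold change of -0.11 ± 0.13 was not called (adjusted p = 0.52). It was at 79.1, 76.6 and 76.7 FPKM in P56-NPCs and 58.0, 63.9 and 59.9 in P0-NPCs. Idi1, the isomerase that balances the isoprenoid units, depended on 1 library. It was at 17.4, 5.74 and 14.04 FPKM in ASTs, with replicate 2 far below the others, and at 5.17, 5.29 and 10.8 in A-iSCs. Its log2 fold change of -0.68 ± 0.41 was not called (adjusted p = 0.20), and without ASTs replicate 2 it was -1.11 (adjusted p = 0.030). Fdft1, the squalene synthase, gave -0.29 ± 0.11 (adjusted p = 0.057).

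Of the enzymes after squalene, 6 of 7 were lower in A-iSCs. Cyp51, the sterol demethylase, was at 58.3, 59.1 and 61.8 FPKM in ASTs, 29.0047, 26.0 and 28.9 in A-iSCs, 34.5, 34.8 and 34.4 in P56-NPCs, and 21.6, 22.1 and 21.4 in P0-NPCs. No 2 of the 4 groups overlapped, and the A-iSCs lay between the NPC groups. Cyp51 fell by 1.07 ± 0.11 from ASTs to A-iSCs (limma, adjusted p = 0.00018). Sc5d, the sterol desaturase near the end of the pathway, was at 33.1, 30.2 and 33.2 FPKM in ASTs, 12.3, 10.3 and 18.3 in A-iSCs, 33.1, 33.3 and 33.2 in P56-NPCs, and 9.998, 9.88 and 9.82 in P0-NPCs. From ASTs to A-iSCs it fell by 1.22 ± 0.20 (adjusted p = 0.0018). A-iSCs replicate 3 was the highest of its group for Sc5d but still below every AST sample. Sqle, the squalene epoxidase and a rate-limiting step, fell by 0.87 ± 0.12 (adjusted p = 0.00087) from a mean of 35.3 ± 2.20 FPKM (SD, n = 3) to 18.9 ± 2.08.

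The other calls after squalene were smaller. Msmo1, a sterol methyl oxidase, fell by 0.59 ± 0.15 (adjusted p = 0.012), Nsdhl, which removes a sterol carboxyl group, by 0.66 ± 0.19 (adjusted p = 0.023), and Lss, the cyclase that makes lanosterol, by 0.37 ± 0.11 (adjusted p = 0.024). Each lost its call without some sample. For Msmo1 this was ASTs replicate 3 (adjusted p = 0.051), for Nsdhl ASTs replicate 2 (adjusted p = 0.071), and for Lss ASTs replicate 1, ASTs replicate 3 or A-iSCs replicate 2 (adjusted p = 0.10, 0.097 and 0.084). Dhcr7, the last reductase of the pathway, was at 6.42, 4.80 and 6.06 FPKM in ASTs, 5.00, 5.94 and 6.01 in A-iSCs, 10.4, 10.3 and 9.72 in P56-NPCs, and 5.96, 6.15 and 6.07 in P0-NPCs. P56-NPCs alone stood apart, and A-iSCs against ASTs gave -0.02 ± 0.13.

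Of 9 further genes of cholesterol synthesis, all tested, 6 were lower in A-iSCs (66.7%, where 29.6% of all genes were), 0 were higher and 3 were not called, with a median of -0.77. Hsd17b7, a sterol ketoreductase, was at 19.6, 17.5 and 20.98 FPKM in ASTs and 5.72, 4.70 and 6.07 in A-iSCs, a fall of 1.65 ± 0.13 (limma, adjusted p = 4.8e-05). Lbr, a sterol reductase of the nuclear envelope, was at 10.3, 5.90 and 9.31 FPKM in ASTs and 2.09, 2.57 and 3.17 in A-iSCs, a fall of 1.37 ± 0.21 (adjusted p = 0.0012).

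Of the 3 regulators, Insig1 was lower in A-iSCs and the genes of both SREBPs were not called. Insig1 was at 51.9, 49.8 and 52.6 FPKM in ASTs, 20.6, 15.5 and 22.7 in A-iSCs, 51.4, 53.2 and 45.7 in P56-NPCs, and 36.1, 27.2 and 34.9 in P0-NPCs. Every A-iSC sample lay below every other sample, and ASTs and P56-NPCs overlapped. The fall from ASTs was 1.37 ± 0.15 on the log2 scale (limma, adjusted p = 0.00030). Srebf2 was at 26.2, 23.3 and 27.7 FPKM in ASTs, 22.9, 20.6 and 26.8 in A-iSCs, 37.1, 40.7 and 35.1 in P56-NPCs, and 33.4, 31.5 and 33.4 in P0-NPCs. On the deposited scale ASTs and A-iSCs overlapped below the NPC groups (-0.13 ± 0.14 for A-iSCs against ASTs). Under scaling by library size Srebf2 was not called between P56-NPCs and either ASTs or A-iSCs. Srebf1 was at 16.2, 13.7 and 14.6 FPKM in ASTs, 15.5, 18.4 and 17.7 in A-iSCs, 58.4, 62.5 and 55.9 in P56-NPCs, and 19.0, 12.9 and 18.1 in P0-NPCs. P56-NPCs alone stood apart, and A-iSCs against ASTs gave 0.20 ± 0.12 (adjusted p = 0.20).

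**Figure D3:**
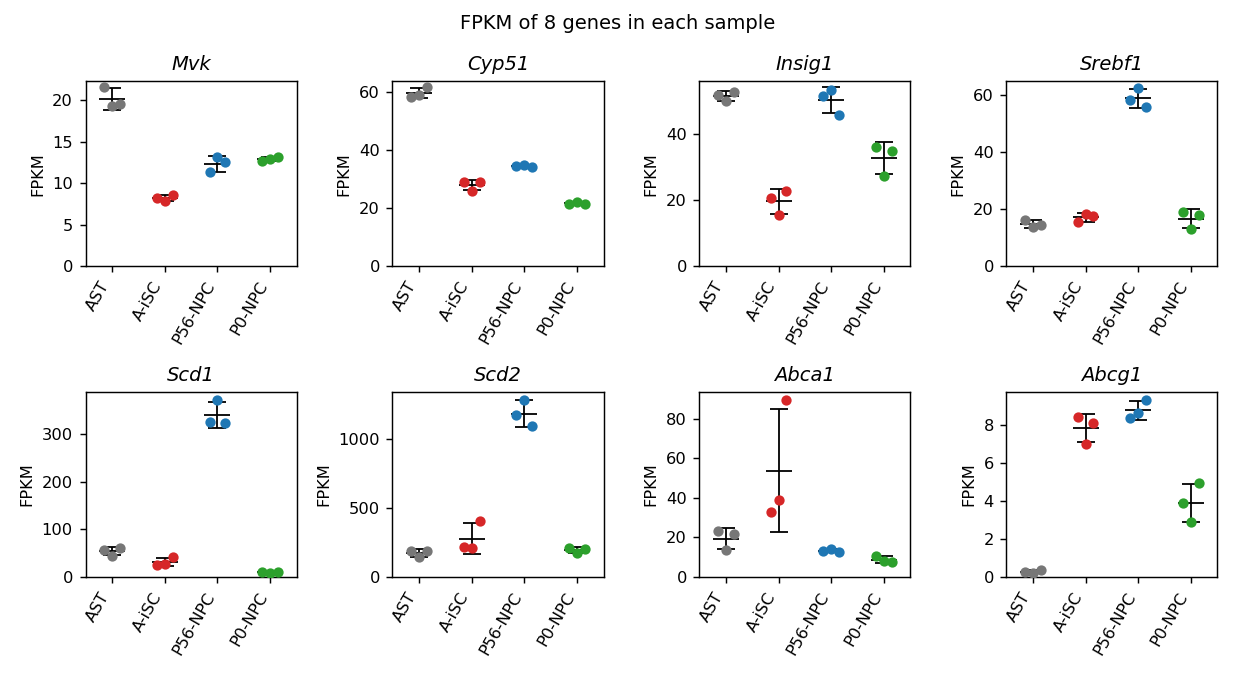
FPKM of 8 genes in each sample (points), with the mean and SD of each group of 3 as bars, each panel on its own axis from 0. On the deposited scale A-iSCs are the lowest group for Mvk and Insig1. P56-NPCs are the highest for Srebf1, Scd1 and Scd2, and A-iSCs replicate 3 lies far above the other samples for Abca1.

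Of the 4 members of acetyl-CoA supply and fatty acid synthesis, 1 was higher and 1 lower in A-iSCs, and 2 were not called. Acly, which splits citrate to give acetyl-CoA in the cytosol, was at 45.4, 34.7 and 46.6 FPKM in ASTs, 21.8, 21.5 and 32.8 in A-iSCs, 34.9, 36.3 and 32.3 in P56-NPCs, and 37.3, 36.6 and 30.7 in P0-NPCs. A-iSCs lay below ASTs without overlap, replicate 3 only just, and the fall was 0.73 ± 0.20 (limma, adjusted p = 0.018). Acss2, which makes acetyl-CoA from acetate, was at 2.29, 1.80 and 2.27 FPKM in ASTs, 2.77, 2.88 and 3.48 in A-iSCs, 8.97, 9.36 and 8.78 in P56-NPCs, and 2.26, 1.99 and 1.71 in P0-NPCs. A-iSCs lay above ASTs and P0-NPCs and below P56-NPCs without overlap, and the rise from ASTs was 0.37 ± 0.12 (adjusted p = 0.037). Both calls were sensitive. That of Acss2 was lost on leaving out any 1 of the 6 samples (adjusted p between 0.053 and 0.099), and that of Acly without ASTs replicate 1, ASTs replicate 3, A-iSCs replicate 1 or A-iSCs replicate 2 (adjusted p between 0.060 and 0.067). Fasn, the fatty acid synthase, gave -0.03 ± 0.19 and Acaca, the acetyl-CoA carboxylase of its first step, 0.26 ± 0.15, and neither was called.

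Of the stearoyl-CoA desaturases, which place the first double bond in fatty acids, Scd1 was called lower in A-iSCs and Scd2 was not called. Scd1 was at 56.1, 44.3 and 60.5 FPKM in ASTs, 25.5, 27.4 and 42.2 in A-iSCs, 325, 371 and 322 in P56-NPCs, and 10.4, 9.05 and 10.1 in P0-NPCs. No groups overlapped, with P56-NPCs highest and P0-NPCs lowest. Scd1 fell by 0.76 ± 0.22 from ASTs to A-iSCs (limma, adjusted p = 0.020), a call that was lost without ASTs replicate 1, ASTs replicate 3, A-iSCs replicate 1 or A-iSCs replicate 2 (adjusted p between 0.066 and 0.073). Scd2 was at 185, 142 and 190 FPKM in ASTs, 214, 208 and 405 in A-iSCs, 1169, 1281 and 1088 in P56-NPCs, and 212, 173 and 204 in P0-NPCs. A-iSCs replicate 3 was far above the other A-iSCs, and the log2 fold change of 0.62 ± 0.28 was not called (adjusted p = 0.10), nor without that sample (0.30, adjusted p = 0.16). Scd2 was called higher under scaling by library size (adjusted p = 0.043), with the replicate block (0.041) and with all 4 groups in the model (0.033).

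The ratio of Scd2 to Scd1 within a sample does not depend on the scaling between samples. It was 3.30, 3.19 and 3.14 in ASTs, 8.38, 7.60 and 9.59 in A-iSCs, 3.60, 3.45 and 3.38 in P56-NPCs, and 20.4, 19.1 and 20.2 in P0-NPCs. The groups did not overlap, and A-iSCs against ASTs gave p = 0.1 in an exact two-sided permutation test, the smallest that 3 against 3 samples allow. The ratio of Srebf1 to Srebf2 was 1.57 ± 0.03 in P56-NPCs (SD, n = 3) against 0.579 ± 0.047 in ASTs, 0.507 ± 0.085 in P0-NPCs and 0.743 ± 0.131 in A-iSCs. Only in P56-NPCs did Srebf1 exceed Srebf2.

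Of the other desaturases and elongases, Fads1, the delta-5 desaturase of polyunsaturated fatty acids, was higher in A-iSCs by 0.46 ± 0.12 (limma, adjusted p = 0.016), a call lost without ASTs replicate 1, ASTs replicate 3 or A-iSCs replicate 2 (adjusted p = 0.052, 0.054 and 0.060). Fads2, the delta-6 desaturase, gave 0.24 ± 0.16, Elovl6, which lengthens saturated chains, 0.32 ± 0.14, and Elovl5, which lengthens polyunsaturated chains, -0.16 ± 0.18. None of the 3 was called, but without A-iSCs replicate 3 Elovl5 was called lower (-0.35, adjusted p = 0.019).

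Both efflux pumps were higher in A-iSCs. Abcg1 was at 0.278, 0.230 and 0.354 FPKM in ASTs, 8.40, 6.99 and 8.08 in A-iSCs, 8.35, 8.65 and 9.29 in P56-NPCs, and 3.89, 2.91 and 4.92 in P0-NPCs. ASTs were far below every other sample, on 34, 34 and 48 fragments, and A-iSCs overlapped P56-NPCs. Abcg1 rose by 2.77 ± 0.11 on the log2 scale (limma, adjusted p = 5.1e-06), a ratio of means of 27.2. Abca1 was at 23.1, 13.5 and 21.7 FPKM in ASTs, 32.9, 39.0 and 89.7 in A-iSCs, 13.4, 14.4 and 12.4 in P56-NPCs, and 10.8, 7.95 and 7.68 in P0-NPCs. A-iSCs were the highest group without overlap, with replicate 3 far above the rest. The rise was 1.32 ± 0.38 (adjusted p = 0.022), 0.88 without A-iSCs replicate 3 (adjusted p = 0.016) and 1.09 without ASTs replicate 2 (adjusted p = 0.077). The call was also lost with no filter on low genes (adjusted p = 0.057).

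Markers of other cells moved with these differences. All 6 microglial markers were higher in A-iSCs, and they summed to 96.5 to 127 FPKM in ASTs, 1084 to 1495 in A-iSCs, 435 to 458 in P56-NPCs and 63.6 to 73.5 in P0-NPCs. Fibroblast and mural markers summed to 1881 to 2267 FPKM in ASTs and 31.6 to 65.3 in A-iSCs, and 4 of the 5 were tested and were lower in A-iSCs. Of the astrocyte markers, 7 of 8 were higher in A-iSCs. The part of any of these cells in the lipid genes was not tested.

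**Figure D4:**
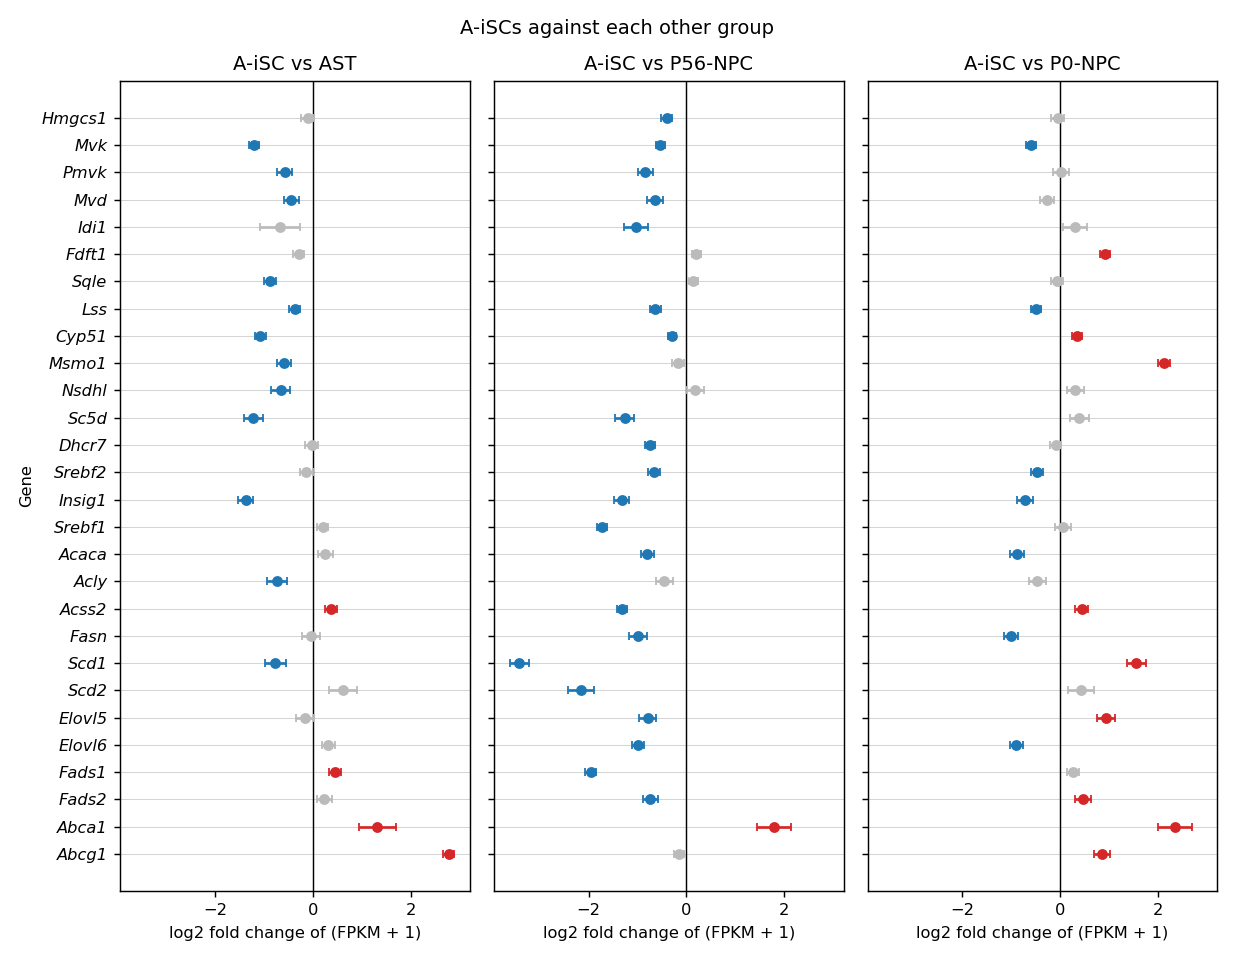
Log2 fold change of (FPKM + 1) of the 28 tested genes for A-iSCs against ASTs, P56-NPCs and P0-NPCs, with standard errors as bars (red called higher in A-iSCs, blue called lower, grey not called). The cholesterol enzymes lie left of 0 against ASTs, where 9 of 13 were called lower, and Scd1 lies furthest left against P56-NPCs at -3.41.

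Scaling decided some of these calls and not others. Under scaling by library size alone, Pmvk, Mvd, Lss, Msmo1, Nsdhl, Acly and Scd1 were no longer called, though each kept a negative log2 fold change, and Srebf1, Scd2 and Elovl6 were called higher. Under upper-quartile scaling Fdft1 was called lower, Acss2 and Fads1 were no longer called, and 2 members were higher and 13 lower.

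**Figure D5:**
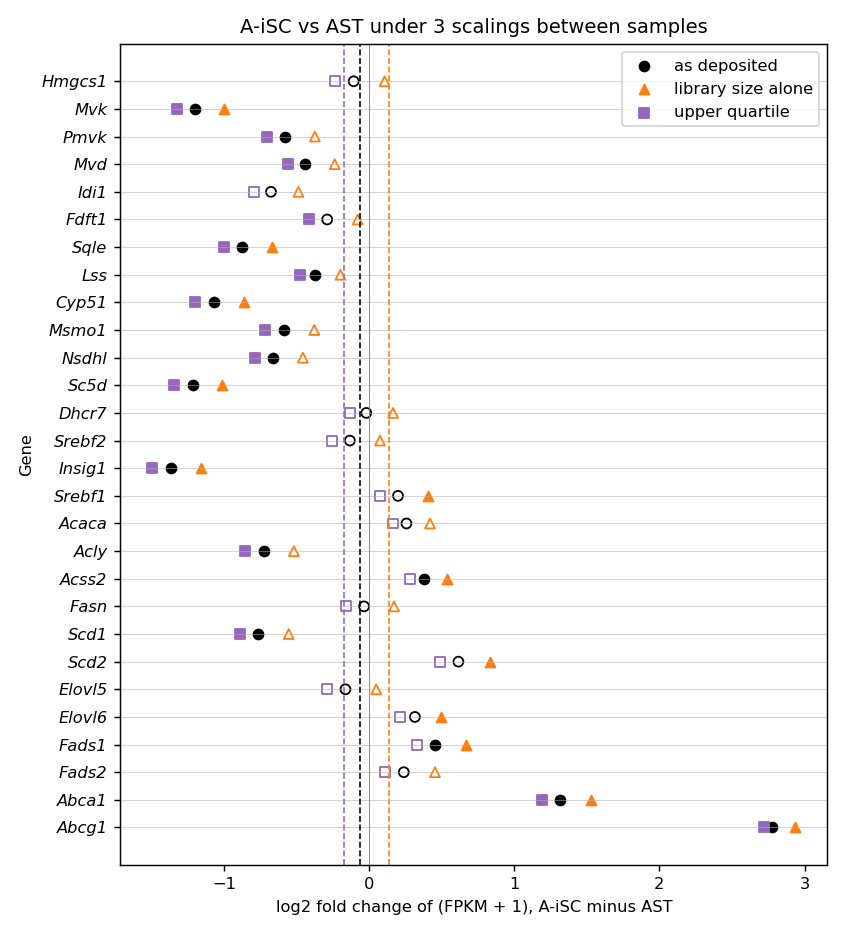
Log2 fold change of (FPKM + 1) of the 28 tested genes between A-iSCs and ASTs under 3 scalings between samples (filled symbols called, open symbols not), with the median of all genes tested as a dashed line for each. Mvk, Sqle, Cyp51, Sc5d and Insig1 stay filled left of 0 under all 3, while Abca1 and Abcg1 stay filled on the right.

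Other genes around the pathway were counted by direction, beside the 25.2% of all genes called higher and 29.6% lower. Of 18 genes of sterol sensing and transport, 7 were higher and 6 lower in A-iSCs (38.9% and 33.3%), with a median of 0.42. The pair named here are not its largest changes. Mylip, a ubiquitin ligase and liver X receptor target, was at 1.77, 0.869 and 1.12 FPKM in ASTs and 9.64, 9.31 and 13.2 in A-iSCs, a rise of 2.38 ± 0.19 (limma, adjusted p = 5.6e-05). Stard4, a carrier of cholesterol between membranes, was at 9.24, 7.54 and 8.93 FPKM in ASTs and 3.80, 3.56 and 5.17 in A-iSCs, a fall of 0.89 ± 0.15 (adjusted p = 0.0019). Of 17 further genes of fatty acid synthesis, 16 were tested, 5 were higher and 8 lower (31.2% and 50%), with a median of -0.40. Thrsp, a nuclear protein tied to lipogenesis, was at 1.39, 2.55 and 1.53 FPKM in ASTs and 26.7, 31.5 and 34.3 in A-iSCs, a rise of 3.51 ± 0.18 (adjusted p = 9.4e-06). Acsl6, an acyl-CoA synthetase, rose by 1.57 ± 0.15, while Fads3 fell by 1.82 ± 0.12 and Acsl4 by 0.87 ± 0.19. Of 13 genes of fatty acid oxidation, 12 were tested and 9 were not called. Cpt1a, which carries fatty acids into mitochondria, rose by 0.81 ± 0.17 (adjusted p = 0.0063), Acadl by 0.66 ± 0.18 (adjusted p = 0.016), and Hadh fell by 0.40 ± 0.14 (adjusted p = 0.047). Acadl lost its call without ASTs replicate 1, ASTs replicate 3 or A-iSCs replicate 2 (adjusted p between 0.060 and 0.069), and Hadh without any 1 sample other than A-iSCs replicate 3 (between 0.078 and 0.13), with -0.26 without A-iSCs replicate 1.

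Against P56-NPCs, most members were lower in A-iSCs as deposited. Of 28 tested, 1 was higher and 21 lower, where 30.1% of 15044 genes were called higher and 30.9% lower. Scaling by library size alone moved the median of all genes to 0.49 and gave 7 members higher and 8 lower, beside 8329 and 2857 genes against 4532 and 4643 as deposited. The calls kept under all 13 alternatives were Abca1 as higher and Sc5d, Insig1, Srebf1, Acss2, Scd1, Scd2, Elovl6 and Fads1 as lower. All 6 desaturases and elongases were called lower as deposited, of which Elovl5 and Fads2 lost their calls under scaling by library size. Under that scaling Fdft1, Sqle, Msmo1, Nsdhl and Abcg1 were called higher in A-iSCs. Scd1 was lower by 3.41 ± 0.20 on the log2 scale (limma, adjusted p = 9e-06), with a mean of 31.7 ± 9.17 FPKM in A-iSCs (SD, n = 3) and 339 ± 27.3 in P56-NPCs, and Scd2 was at -2.16 ± 0.26. Fads1 was at -1.95 ± 0.11, Srebf1 at -1.72 ± 0.10, Insig1 at -1.33 ± 0.15, Acss2 at -1.32 ± 0.10 and Sc5d at -1.26 ± 0.19. Abca1 was higher in A-iSCs by 1.79 ± 0.34 (adjusted p = 0.0034). Hmgcs1 (-0.40 ± 0.12) and Cyp51 (-0.30 ± 0.09) changed sign under scaling by library size, at 0.15 and 0.24, where Cyp51 was called higher in A-iSCs (adjusted p = 0.040). Both calls were also lost without A-iSCs replicate 2 and without each P56-NPC sample in turn. Without A-iSCs replicate 3, 3 members were higher. All 8 oligodendrocyte, 6 precursor and 4 ependymal markers and 6 of 7 neuron markers were lower in A-iSCs. Other lists were divided: 2 astrocyte markers were higher and 5 lower, 3 microglial higher and 2 lower, and 4 neural progenitor higher and 1 lower. Of fibroblast and mural markers 2 were higher and 3 lower, and of endothelial markers 1 each way. The part of these cells, and of the mitochondrial share given above, was not tested.

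P56-NPCs had higher desaturases, elongases, Srebf1 and Srebf2 than ASTs, while Insig1 was not called as deposited (-0.04 ± 0.08, limma, adjusted p = 0.68). Under scaling by library size Insig1 (-0.37), Sc5d (-0.29), Acly (-0.60) and Abca1 (-0.79) were called lower in P56-NPCs. Of 28 tested members, 16 were higher and 6 lower in P56-NPCs, where 39.1% of 15146 genes were called higher and 39.8% lower. With scaling by library size alone, which moved the median of all genes to -0.34, 12 were higher and 10 lower (13 and 8 under upper-quartile scaling), beside 4569 and 7559 genes against 5924 and 6032 as deposited. All 6 desaturases and elongases were higher, and these calls were kept under all 13 alternatives. Scd2 was higher by 2.78 ± 0.15 on the log2 scale (limma, adjusted p = 2.2e-06), Scd1 by 2.65 ± 0.13, Fads1 by 2.41 ± 0.09, Elovl6 by 1.31 ± 0.07, Fads2 by 0.98 ± 0.09 and Elovl5 by 0.63 ± 0.07. Srebf1 was higher by 1.92 ± 0.09, Acss2 by 1.69 ± 0.09, Acaca by 1.06 ± 0.11, Fasn by 0.96 ± 0.19 and Abcg1 by 2.92 ± 0.08.

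The cholesterol enzymes were divided between P56-NPCs and ASTs. Mvk (-0.66 ± 0.08), Fdft1 (-0.49 ± 0.07), Sqle (-1.01 ± 0.07), Cyp51 (-0.77 ± 0.07), Msmo1 (-0.42 ± 0.08) and Nsdhl (-0.84 ± 0.11) were lower in P56-NPCs, and these 6 calls were kept under all 13 alternatives. Dhcr7 was higher by 0.73 ± 0.10, and Srebf2 by 0.53 ± 0.09, the latter not called under scaling by library size. Hmgcs1 (0.30 ± 0.07), Pmvk (0.26 ± 0.07) and Lss (0.26 ± 0.09) were called higher as deposited and fell to -0.04, -0.06 and -0.03 under scaling by library size. Lss was called without P56-NPCs replicate 3 but lost its call on leaving out any other sample.

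All 8 oligodendrocyte markers were higher in P56-NPCs than in ASTs, and they summed to 17.8 to 19.6 FPKM in ASTs, 60.7 to 83.3 in A-iSCs, 11543 to 13204 in P56-NPCs and 25.3 to 36.5 in P0-NPCs. Mobp and Opalin were at 0 in all ASTs, and Opalin in all P0-NPCs. Markers of oligodendrocyte precursors (6 of 6), ependymal cells (4 of 4) and microglia (6 of 6) were also higher in P56-NPCs than in ASTs. So were those of astrocytes (8 of 8) and neurons (6 of 7). Of fibroblast and mural markers 1 was higher and 4 were lower in P56-NPCs. They summed to 14.4 to 26.8 FPKM in P56-NPCs and 1881 to 2267 in ASTs. Of neural progenitor markers 2 were higher and 3 lower, and of endothelial markers 1 each way. Precursor markers summed to 106 to 128 FPKM in ASTs and 551 to 555 in P56-NPCs, ependymal markers to 41.5 to 49.8 and 221 to 286, and neuron markers to 88.1 to 124 and 198 to 242. The part of these cells, and of the mitochondrial share given above, in the levels of the desaturases, elongases and Srebf1 in P56-NPCs was not tested.

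Against ASTs, 5 of 28 tested members were higher in P0-NPCs and 13 lower, where 38.1% of 15010 genes were called higher and 40.9% lower. With scaling by library size alone 11 were higher and 12 lower, beside 7106 and 4860 genes against 5713 and 6146 as deposited, with the median of all genes at 0.21. Of 13 cholesterol enzymes tested, 9 were lower and 0 higher as deposited. Under scaling by library size Idi1 was no longer called, and Hmgcs1 (0.23), Lss (0.37) and Dhcr7 (0.32) were called higher. Msmo1 was at 43.4, 37.9 and 44.0 FPKM in ASTs, 26.8, 23.7 and 32.4 in A-iSCs, 30.9, 30.1 and 31.8 in P56-NPCs, and 5.36, 5.51 and 5.70 in P0-NPCs. P0-NPCs were far below all other samples, with a log2 fold change of -2.71 ± 0.09 against ASTs (limma, adjusted p = 1e-07) and a ratio of means of 0.132. Sc5d (-1.61 ± 0.08), Cyp51 (-1.42 ± 0.08), Fdft1 (-1.20 ± 0.09), Nsdhl (-0.97 ± 0.11), Sqle (-0.81 ± 0.09), Mvk (-0.60 ± 0.08) and Pmvk (-0.59 ± 0.11) were lower as well. Idi1 (-0.97 ± 0.33) kept its call without ASTs replicate 2 and lost it without any other sample.

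The fatty acid genes of P0-NPCs were divided. Acaca (1.14 ± 0.11), Fasn (0.97 ± 0.15) and Elovl6 (1.21 ± 0.08), which act in the making and first lengthening of saturated chains, were higher than in ASTs. Scd1 (-2.32 ± 0.13) and Elovl5 (-1.10 ± 0.10) were lower. Srebf2 was higher by 0.34 ± 0.09, Insig1 lower by 0.65 ± 0.12, Abca1 lower by 1.04 ± 0.21 and Abcg1 higher by 1.91 ± 0.15. Neuron markers summed to 852 to 1030 FPKM in P0-NPCs and 88.1 to 124 in ASTs, with 7 of 7 higher. Endothelial markers summed to 69.6 to 71.0 FPKM in P0-NPCs and 2.90 to 3.78 in ASTs, with 5 of 5 higher. The part of these cells in the values above was not tested.

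Against P0-NPCs, A-iSCs were higher in 9 of 28 tested members and lower in 7, where 31.5% of 15170 genes were called higher and 33.6% lower. Msmo1 was higher in A-iSCs by 2.12 ± 0.13 (limma, adjusted p = 6.4e-06), Scd1 by 1.56 ± 0.19, Elovl5 by 0.94 ± 0.18 and Fdft1 by 0.91 ± 0.11. Abca1 was higher by 2.36 ± 0.35 and Abcg1 by 0.86 ± 0.16. Fasn (-1.003 ± 0.15), Elovl6 (-0.89 ± 0.13), Acaca (-0.88 ± 0.14), Insig1 (-0.72 ± 0.17), Mvk (-0.59 ± 0.10), Lss (-0.49 ± 0.10) and Srebf2 (-0.47 ± 0.12) were lower. These 13 calls were kept under all alternatives. Fads2 (0.47 ± 0.15), Acss2 (0.44 ± 0.12) and Cyp51 (0.35 ± 0.10) were called higher but not under all alternatives. With the replicate block Fads2 and Cyp51 were not called, nor was Fads2 with no filter or under scaling by library size. Acss2 lost its call without P0-NPCs replicate 3, Cyp51 without A-iSCs replicate 1, P0-NPCs replicate 1 or P0-NPCs replicate 3, and Fads2 without A-iSCs replicate 2 or any P0-NPC sample. All 7 neuron markers were lower in A-iSCs, where they summed to 50.6 to 66.4 FPKM, as were 4 of 5 endothelial markers, which summed to 1.19 to 2.10 FPKM, and all 6 microglial markers were higher. The part of these cells was not tested.

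Between the NPC groups, most of the members called as deposited were higher in P56-NPCs. Of 28 tested, 20 were higher in P56-NPCs and 1, Sqle (-0.20 ± 0.07), was lower, where 39.7% of 15394 genes were called higher and 39% lower. The members called higher were 71.4% of those tested, against 39.7% of all genes. In both directions together the members' share was not larger than that of all genes. Neither difference was tested. The call of Sqle was lost without each sample in turn except P0-NPCs replicate 3 (adjusted p between 0.051 and 0.091), and that of Srebf2 without each except P56-NPCs replicate 3 (between 0.053 and 0.11). With scaling by library size alone, which moved the median of all genes to -0.53, 11 were higher and 10 lower, beside 3438 and 9428 genes against 6115 and 6011 as deposited. Hmgcs1 (0.35 ± 0.06), Mvd (0.38 ± 0.10), Srebf2 (0.19 ± 0.07), Insig1 (0.61 ± 0.12) and Abca1 (0.57 ± 0.12) changed sign under that scaling, and Hmgcs1 and Srebf2 were then called lower in P56-NPCs (-0.27 and -0.42, adjusted p = 0.0048 and 0.00046). The calls kept under all 13 alternatives were Idi1, Msmo1, Sc5d, Srebf1, Acss2, Scd1, Scd2, Elovl5, Fads1, Fads2 and Abcg1. Scd1 was higher in P56-NPCs by 4.97 ± 0.08 (limma, adjusted p = 1.1e-08), a ratio of means of 34.4. Scd2 was higher by 2.58 ± 0.11, Msmo1 by 2.29 ± 0.06, Fads1 by 2.22 ± 0.08, Srebf1 by 1.78 ± 0.14, Acss2 by 1.75 ± 0.08, Elovl5 by 1.73 ± 0.08 and Sc5d by 1.65 ± 0.05. All 8 oligodendrocyte, 8 astrocyte, 6 precursor and 6 microglial markers were higher in P56-NPCs, as were 3 of 4 ependymal markers. All 5 endothelial and 4 of 5 fibroblast and mural markers were lower. Of neuron markers 2 were higher and 4 lower, and of neural progenitor markers 2 and 3. The part of these cells was not tested.

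The comparisons share samples, so their values stand side by side and were not set against each other. Some members share sequence with other genes, and how the authors assigned such fragments is not given in the sources used here. Of the 50-base stretches of the Fdps transcripts, 64.07% occur in other genes, and Fdps was listed at 1.08, 0.574 and 0.781 FPKM in ASTs and at 0.222 to 0.792 FPKM in the other groups. Such stretches made up 38.07% for Acaca, 29.35% for Fdft1, 28.58% for Idi1 and 12.56% for Hmgcs1. For Scd1 and Scd2 they made up 4.56% and 3.97%, shared in part between this pair, which lies at chr19:44394455-44407879 and chr19:44293674-44306864 of GRCm38. The levels of these genes are uncertain to that extent.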

How the data were processed

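RNA from 12 samples (4 groups of 3, grouped by their labels) was sequenced, and the authors deposited 1 table of values per gene and sample. The unit is not named there and was taken to be FPKM. Multiplied by gene length, the values came out as whole fragments in 100% of cases at a tolerance of 0.02. This shows counts scaled by length and does not by itself fix the unit. Gene positions matched GENCODE M21 (GRCm38) for 54985 of 55240 shared identifiers, although the submitters' processing notes name Bowtie 0.12.2 and mm8. The total behind the FPKM was 0.744 to 1.218 times the fragments counted, so the values carry a scaling between samples by the authors.

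Members were matched by symbol. Each pair of groups was fitted with limma 3.58.1 (R 4.3.3; lmFit and eBayes with trend) on log2(FPKM + 1), for genes with a mean of at least 1 FPKM in either group, with Benjamini-Hochberg adjustment over all genes tested. The DESeq2 test of the study was not run. The script was tested on simulated data. The 13 alternatives per comparison were a pseudocount of 0.1, no filter, scaling by library size or upper quartile, all 4 groups in the model, a replicate block, limma-voom on recovered fragments, and leaving out each of the 6 samples. Ratios used exact permutation tests (scipy 1.17.1), and sequences were read with Python 3.11.15. Floors of 3 fragments cover counting error only.

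The members and lists were chosen with earlier results of these data known. Values of all 12 samples are given for the members of each role with the highest and lowest log2 fold change, sign included, between A-iSCs and ASTs. They are also given for Srebf1, Srebf2, Insig1, Scd1, Scd2, Abca1 and Abcg1, and, chosen after values were seen, for Cyp51 and Msmo1. From the other pathway lists, the 2 largest changes each way were to be named. A few of these genes are left out here, among them the largest changes in both directions of the sterol sensing and transport list.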

Additional observations from a re-analysis of the deposited data

How the results depend on the processing

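Most values kept their direction and side of the threshold. Of the counts recomputed under the alternatives, 283 stayed within 1.5 times their value and 29 did not. Scaling by library size moved the most. For A-iSCs against ASTs it gave 7 members higher and 5 lower, for P56-NPCs against ASTs 10 lower, and for P0-NPCs against ASTs 11 higher. For A-iSCs against P56-NPCs it gave 7 members higher and 8 lower, with 8329 and 2857 of all genes, and for P56-NPCs against P0-NPCs 11 and 10, with 3438 and 9428 of all genes. Upper-quartile scaling gave 2 members higher in A-iSCs than in ASTs, with the median of all genes at -0.17, and so did fitting with no filter. With no filter, 8597 genes were higher in P0-NPCs than in ASTs. With all 4 groups in the model, 2 members were higher in A-iSCs than in P56-NPCs and 0 were lower in P56-NPCs than in P0-NPCs.

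Leaving out 1 sample at a time gave 2 to 3 members higher and 7 to 12 lower in A-iSCs than in ASTs, 1 to 3 higher in A-iSCs than in P56-NPCs, and 0 to 1 lower in P56-NPCs than in P0-NPCs. Between A-iSCs and ASTs, members that were not called changed sign under library size scaling: Hmgcs1 (0.11), Dhcr7 (0.17), Srebf2 (0.0751), Fasn (0.17) and Elovl5 (0.0490). Dhcr7 ran from -0.13 to 0.0533 and Fasn from -0.20 to 0.10 on leaving out 1 sample. Called members that changed sign under library size scaling were Hmgcs1 (-0.0415), Pmvk (-0.0643) and Lss (-0.0268) for P56-NPCs against ASTs, Hmgcs1 (0.15) and Cyp51 (0.24) for A-iSCs against P56-NPCs, and Hmgcs1 (-0.27), Mvd (-0.22), Srebf2 (-0.42), Insig1 (-0.0081) and Abca1 (-0.0133) for P56-NPCs against P0-NPCs. Of these, Cyp51 for A-iSCs against P56-NPCs and Hmgcs1 and Srebf2 for P56-NPCs against P0-NPCs were called in the opposite direction. The cause was not tested.

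The values do not settle whether replicate numbers pair the samples. Deviations of same-numbered samples of ASTs and A-iSCs correlated at -0.42, 0.37 and 0.48, and those of the other comparisons between -0.16 and 0.12. With the replicate number as a block, members higher and lower were 5 and 12 for A-iSCs against ASTs, 15 and 6 for P56-NPCs against ASTs, 5 and 13 for P0-NPCs against ASTs, 1 and 20 for A-iSCs against P56-NPCs, 7 and 7 for A-iSCs against P0-NPCs, and 19 and 1 for P56-NPCs against P0-NPCs. With 3 samples a group, no outlier test of single values was made, and the chi-square that set ASTs replicate 2 and A-iSCs replicate 3 apart compares samples with counting error alone. Low genes rest on few fragments, as Abcg1 does in ASTs.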

Other observations

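Fatty acid oxidation genes, which break down what the synthesis genes make, were lowest in P0-NPCs. Their summed level was 301 to 304 FPKM in ASTs, 297 to 373 in A-iSCs, 366 to 391 in P56-NPCs and 152 to 159 in P0-NPCs, which were also lowest as a share of summed FPKM (0.0551 to 0.0629%, against at least 0.0770% elsewhere). Of 12 tested, 10 were lower and 0 higher in P0-NPCs than in ASTs (limma, adjusted p under 0.05), with a median log2 fold change of -1.01, where 40.9% of all genes were called lower. Acadl, an acyl-CoA dehydrogenase, was lower by 0.92 ± 0.13 and Hadh, which acts later in the cycle, by 1.08 ± 0.08.

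The further genes of fatty acid synthesis summed to 416 to 437 FPKM in ASTs, 321 to 361 in A-iSCs, 534 to 552 in P56-NPCs and 213 to 222 in P0-NPCs, and the groups did not overlap on this scale. As a share of summed FPKM they took 0.112 to 0.131%, 0.104 to 0.117%, 0.106 to 0.114% and 0.0805 to 0.0868% in the same order, and only P0-NPCs stood apart. The ratio of Abca1 to Abcg1 was 83.1, 58.9 and 61.2 in ASTs and 3.92, 5.58 and 11.1 in A-iSCs, without overlap (exact two-sided permutation test, p = 0.1, the smallest possible).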
